A study of Mus musculus with 24 samples.

Results

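The 8 genes described here form the route by which leukemia inhibitory factor (LIF) acts on mouse embryonic stem cells (ESCs), and they were chosen by name: Lif, Lifr, Il6st, Jak1, Stat3, Socs3, Pim1 and Gbx2, out of 22926 gene symbols in the count tables. All 8 passed the filter on low counts that left 15639 genes for testing. RNA-seq of polyadenylated RNA covered 24 libraries, 12 of undifferentiated cells (D0) and 12 collected 6 days after LIF was withdrawn (D6), and each day held 3 libraries of WT, 2 of DKO (Tet1 and Tet2 mutated), 2 of TKO (Tet1, Tet2 and Tet3 mutated), 3 of Tet1-/- and 2 of Tet2-/-. Every library came from 1 clone of a single Oct4:IRES:eGFP ESC line, grown without feeder cells in LIF medium before the withdrawal. The mutations were CRISPR indels, the WT clones came from the same parental line, and the replicates of a genotype are therefore clones of 1 line and not separate animals. Clones are named by genotype and clone number, without the day and the replicate digit that some labels add. The same clones were sequenced at both days except that Tet1_KO_2.3 had only a D0 library and Tet1_KO_2.2 only a D6 library. Values of a group are listed in the order WT_O4.1, WT_O4.2, WT_O4.13, then DKO_5.11, DKO_5.12, then TKO_8.4, TKO_8.12, then Tet1_KO_2.1, Tet1_KO_2.3 or Tet1_KO_2.2, Tet1_KO_2.4, then Tet2_KO_3.10, Tet2_KO_3.11.

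LIF binds the LIF receptor (Lifr), which pairs with the shared signalling chain gp130 (Il6st). The pair activates JAK kinases, chiefly Jak1, and these phosphorylate the transcription factor Stat3, which enters the nucleus and switches on its target genes. In mouse ESCs this signal maintains self-renewal. Socs3 is a target that feeds back to block the receptor complex, Pim1 is a serine/threonine kinase gene, and Gbx2 is a homeobox gene, both induced by Stat3. The activity of Stat3 depends on its phosphorylation, which RNA levels do not measure.

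The promoters of Socs3 and Gbx2 are shown because of the 8 genes these fell most in WT between D0 and D6. A further reason is that in Tet2-/- at D6 Socs3 was lower and Gbx2 higher than in WT. The sequences are the 250 bases before the start of each gene, from RefSeq with build GRCm38.p6, both read from the minus strand, Socs3 at chr11:117969367-117969616 and Gbx2 at chr1:89931177-89931426. Capitals mark the palindromic element TTCNNNGAA, the form that STAT dimers are known to bind.
Socs3: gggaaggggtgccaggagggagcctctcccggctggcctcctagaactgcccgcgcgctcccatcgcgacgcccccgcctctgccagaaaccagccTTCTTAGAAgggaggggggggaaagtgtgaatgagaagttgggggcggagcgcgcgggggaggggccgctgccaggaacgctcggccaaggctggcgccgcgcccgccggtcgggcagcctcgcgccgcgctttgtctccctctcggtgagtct
Gbx2: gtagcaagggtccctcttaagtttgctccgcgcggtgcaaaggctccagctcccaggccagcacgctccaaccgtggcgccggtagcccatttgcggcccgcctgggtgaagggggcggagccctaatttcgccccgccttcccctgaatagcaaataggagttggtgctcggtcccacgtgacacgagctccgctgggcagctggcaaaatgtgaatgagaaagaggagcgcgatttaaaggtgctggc
The element, which reads the same on both strands, was searched in windows from 250 bases before to 50 after the start. It occurred in 2726 of 32851 windows (8.30%). Among the 10 windows of the 8 genes it occurred in 1, that of Socs3, as TTCTTAGAA with its first base 154 bases before the start. No match means only that these letters were not in the window.

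Levels are given as CPM, in which counts are divided by the TMM-scaled total of their library, so that a value compares 1 gene across libraries and not different genes with each other. Library totals were 21729346 to 37290208 counts at D0 and 18400463 to 34219640 at D6, and 3 counts, the limit that a count of 0 allows, equal 0.0814 to 0.151 CPM. Targeted transcripts were only a partial check of the genotypes, since an indel need not remove RNA. Tet2 RNA at D0 was 87.9 to 93.9 CPM in WT, 22.3 to 55.7 in DKO, 8.16 to 42.5 in TKO and 20.9 to 23.2 in Tet2-/-, but at D6 Tet2-/- held 15.89 to 16.63 CPM, partly within the WT range of 12.29 to 15.97. Tet1 RNA overlapped between WT (220 to 431 CPM) and Tet1-/- (93.4 to 358) already at D0, and it was 230 to 373 CPM in DKO and 41.7 to 568 in TKO, with 1 TKO clone above every WT clone. Tet3 RNA at D0 was 2.84 to 4.43 CPM in TKO and 5.05 to 7.94 in WT. Summed levels of 9 markers of undifferentiated ESCs were 4424 to 5210 CPM over all D0 libraries, so the defining markers of the labelled cell type were present. At D6 the sum was 777 to 1639 CPM in WT, 1186 to 1215 in DKO, 1559 to 1692 in TKO, 910 to 1613 in Tet1-/- and 2164 to 2372 in Tet2-/-, which lay above all other D6 libraries. In bulk RNA, fewer cells of a type and less RNA per cell cannot be told apart, and the part of the marker levels in the results below was not tested.

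**Figure D1:**
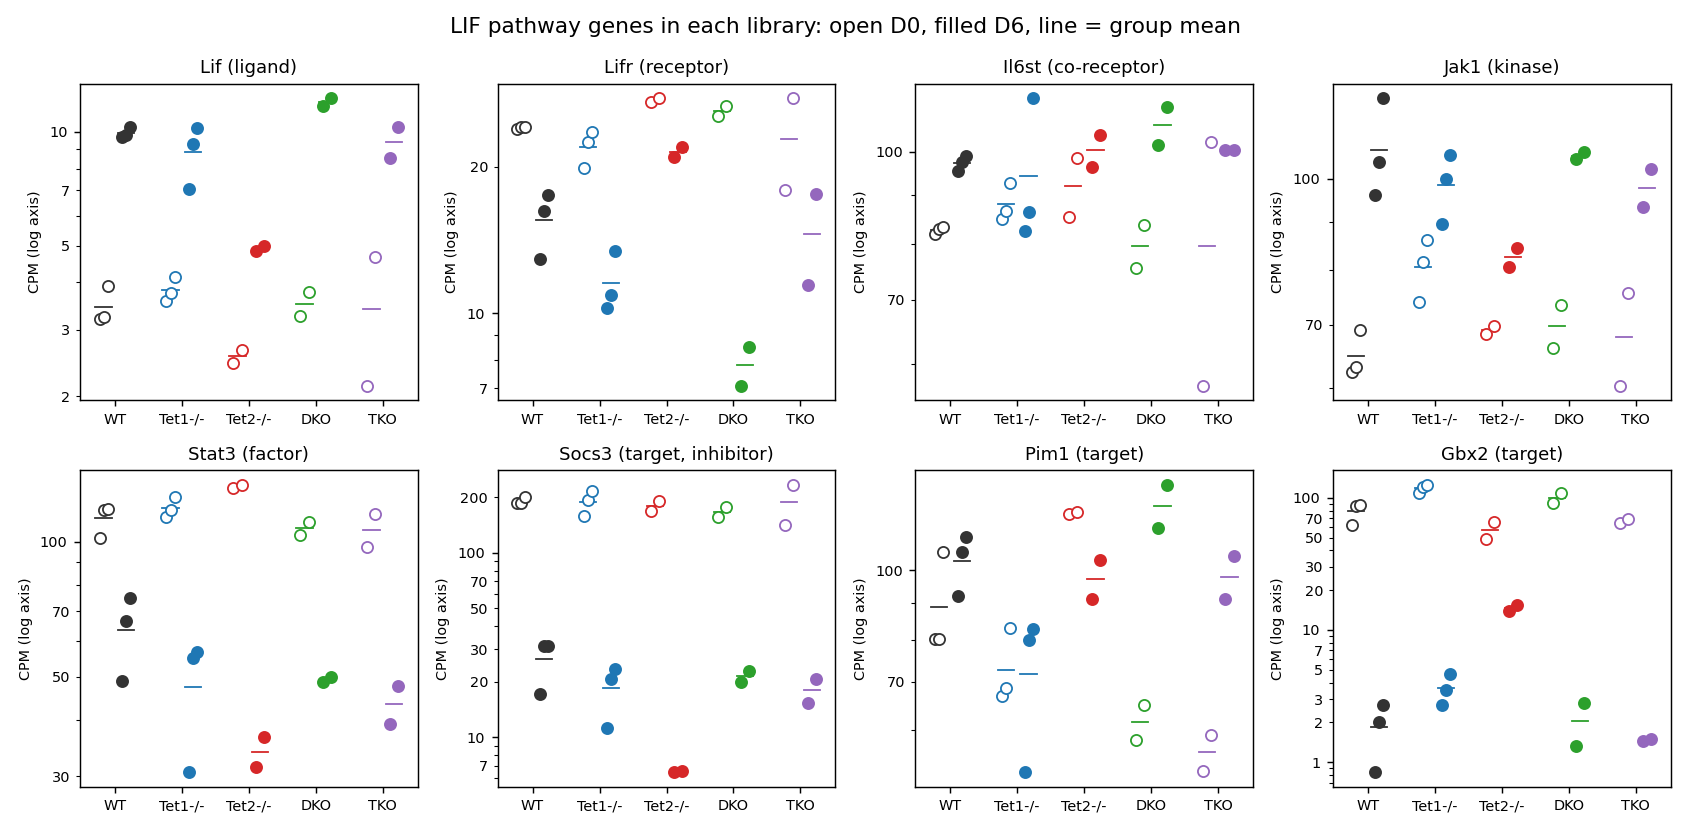
Levels of the 8 genes in each library, in CPM on a log axis with its own range in each panel, by genotype; open points are D0, filled points are D6 and short lines are group means. Stat3, Socs3 and Gbx2 lie lower and Lif higher at D6 in every library, and the 2 Tet2-/- libraries stand apart at D6 for Socs3, Gbx2 and Lif.

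The first question was how the pathway's genes changed between D0 and D6, after 6 days without LIF. No library came from cells kept in LIF for 6 days. Loss of LIF therefore cannot be told apart from 6 days of culture or from a difference between the library sets of the 2 days. In WT, 3 of the 8 genes were called, meaning an adjusted p under 0.05 and more than a 2-fold change in edgeR's quasi-likelihood test: Gbx2 and Socs3 fell and Lif rose, where 34.0% of all tested genes were called. A further 3 genes passed the adjusted p alone, Stat3 and Lifr lower and Jak1 higher, where 66.3% of all genes did, and Il6st and Pim1 did not pass. The median log2 fold change of the 8 genes was -0.21, beside 0.01 over all genes. The same comparison called 5 of the 8 genes in DKO (29.2% of all genes), 4 in TKO (25.4%), 4 in Tet1-/- (31.1%) and 3 in Tet2-/- (19.1%), and by adjusted p alone 7 (55.6%), 7 (50.5%), 6 (63.4%) and 4 (40.0%) of the 8 passed. Over all 24 libraries the D0 and D6 values did not overlap for 4 of the 8 genes (Stat3, Socs3, Lif and Gbx2), a separation that 24.9% of tested genes showed. In the 11 clones sequenced at both days, 6 of the 8 genes moved one way in every clone, as did 47.2% of tested genes.

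Lif, the ligand gene, was low in the presence of LIF and rose in every genotype. At D0 it stood at 3.19, 3.91 and 3.24 CPM in clones WT_O4.1, WT_O4.2 and WT_O4.13, at 3.78 and 3.25 in DKO, at 2.13 and 4.66 in TKO, at 3.74, 4.14 and 3.57 in the Tet1-/- clones and at 2.65 and 2.45 in Tet2-/-. At D6 the values were 10.3, 9.69 and 9.84 CPM in the same WT clones, 11.7 and 12.3 in DKO, 8.52 and 10.3 in TKO, 9.29, 7.07 and 10.2 in Tet1-/- and 4.84 and 4.99 in Tet2-/-. The 2 Tet2-/- libraries were the lowest at D6, yet above every D0 library. The log2 fold change was 1.53 (SE 0.213, edgeR adjusted p = 5.39e-06) in WT, 1.77 in DKO, 1.47 in TKO (1.02 to 2.14 with a library left out), 1.22 in Tet1-/- and 0.95 in Tet2-/-, and all 5 passed the test. In Tet2-/- it did not pass without the D0 library of clone Tet2_KO_3.11 (edgeR adjusted p = 0.0698).

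Lifr, the receptor subunit specific to LIF and related cytokines, was lower at D6 in all 11 clones sequenced at both days. In WT it went from 24.15, 24.19 and 23.96 CPM to 16.2, 12.9 and 17.5 in clones WT_O4.1, WT_O4.2 and WT_O4.13. In DKO it went from 25.5 to 8.51 CPM in clone DKO_5.11 and from 26.7 to 7.08 in clone DKO_5.12, the lowest values of all 24 libraries. Tet2-/- kept 22.0 and 21.0 CPM at D6 after 27.2 and 27.7 at D0, the highest D6 values. TKO clones differed from each other, with 27.7 then 11.4 CPM in clone TKO_8.4 and 18.0 then 17.6 in clone TKO_8.12, while Tet1-/- went from 19.9 to 23.6 down to 10.3 to 13.4 CPM. The log2 fold change was -0.63 (SE 0.172, edgeR adjusted p = 0.00332) in WT, -1.74 (SE 0.217, adjusted p = 3.01e-06) in DKO, -0.93 in Tet1-/- and -0.35 (adjusted p = 0.184) in Tet2-/-. In TKO it was -0.66 (adjusted p = 0.0144), and this did not pass without clone TKO_8.4 at D0 (-0.31, adjusted p = 0.260) or at D6 (-0.38, adjusted p = 0.197). The tables hold 2 lines for Lifr, and the first line, used here, held 21.0% to 30.9% as many counts as the second. With the second line the log2 fold change was -0.44 in WT and -1.59 in DKO, and the same 4 genotypes passed the test.

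Il6st, the gp130 chain shared by this cytokine family, did not pass the test between days in any genotype. WT clones held 82.9, 82.1 and 83.4 CPM at D0 and 97.5, 98.9 and 95.5 at D6, without overlap, yet the log2 fold change of 0.23 (SE 0.150) did not pass the edgeR test across all groups (adjusted p = 0.178). Over the D6 libraries it spanned 82.5 to 114 CPM. Clone TKO_8.12 had the lowest value of all libraries at D0, 56.9 CPM, against 102 in clone TKO_8.4, and both TKO clones stood at 100 at D6. The log2 fold changes were 0.42 in DKO, 0.33 in TKO, 0.10 in Tet1-/- and 0.13 in Tet2-/-, and none passed. With clone as a block, the DKO value passed (0.42, adjusted p = 0.0424).

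Jak1, the main kinase of the gp130 complex, was higher at D6 in all 11 clones. WT went from 62.4, 69.1 and 63.1 CPM to 122, 96.1 and 104, a log2 fold change of 0.73 (SE 0.104, edgeR adjusted p = 7.25e-06). DKO went from 73.5 and 66.1 to 107 and 105 CPM and TKO from 75.7 and 60.3 to 93.3 and 102, and both passed (log2 0.60 and 0.52). Tet2-/- went only from 68.4 and 69.8 to 80.6 and 84.5 CPM (log2 0.26, adjusted p = 0.116), the lowest D6 values of any genotype. Tet1-/- started higher, at 74.0, 86.1 and 81.5 CPM, and reached 106, 100 and 89.6 CPM, which passed (log2 0.29, adjusted p = 0.0202) but not with clone as a block (0.33, adjusted p = 0.0765), nor without clone Tet1_KO_2.1 at D0 (adjusted p = 0.0907) or at D6 (0.0522).

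Stat3, the transcription factor of the pathway, fell in all 11 clones, and its own gene is a known Stat3 target. At D0 it spanned 97.3 to 134 CPM over all genotypes. At D6 it was 66.7, 48.8 and 74.9 CPM in clones WT_O4.1, WT_O4.2 and WT_O4.13, 50.1 and 48.6 in DKO, 39.3 and 47.6 in TKO, 55.1, 56.7 and 30.6 in Tet1-/- clones Tet1_KO_2.1, Tet1_KO_2.2 and Tet1_KO_2.4, and 36.7 and 31.4 in Tet2-/-. The highest values were in clones WT_O4.13 and WT_O4.1, and both Tet2-/- values lay below those of every other clone except Tet1_KO_2.4, which was lower still. The log2 fold change was -0.83 (SE 0.178, edgeR adjusted p = 0.000474) in WT, -1.12 in DKO, -1.29 in TKO, -1.33 in Tet1-/- and -1.96 (SE 0.225, adjusted p = 2.34e-06) in Tet2-/-. All 5 passed, and the 4 knockouts, but not WT, were also past the 2-fold limit.

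Socs3, the feedback inhibitor, was high in LIF and fell in every clone. At D0 it was 186, 200 and 187 CPM in WT, 177 and 157 in DKO, 234 and 142 in TKO, 216, 194 and 158 in Tet1-/- and 192 and 168 in Tet2-/-. At D6 it was 31.5, 17.1 and 31.3 CPM in clones WT_O4.1, WT_O4.2 and WT_O4.13, 19.9 and 22.9 in DKO, 15.3 and 20.6 in TKO, 23.4, 20.8 and 11.2 in the Tet1-/- clones in the order given for Stat3, and 6.56 and 6.45 in Tet2-/-. Both Tet2-/- libraries lay below all others, with clone Tet1_KO_2.4 next. The log2 fold change was -2.85 (SE 0.256, edgeR adjusted p = 2.86e-08) in WT, -2.96 in DKO, -3.39 in TKO, -3.36 in Tet1-/- and -4.79 (SE 0.348, adjusted p = 1.18e-08) in Tet2-/-. In the same clones the fall ranged from 5.92-fold in WT_O4.1 to 29.2-fold in clone Tet2_KO_3.10.

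Pim1, the kinase gene induced by Stat3, passed the test between days in DKO and TKO, but neither day effect was shown to differ from that of WT (difference 0.78, edgeR adjusted p = 0.439 in DKO, and 0.59, adjusted p = 0.140 in TKO). In WT it was 106, 80.3 and 80.4 CPM at D0 and 92.1, 111 and 106 at D6, which overlapped (log2 0.21, edgeR adjusted p = 0.218, and 0.36, adjusted p = 0.0445 with library totals). In DKO it rose from 64.9 and 58.2 to 114 and 131 CPM (log2 0.997, SE 0.186, adjusted p = 0.000204, just under 2-fold and so not called), and in TKO from 59.1 and 52.7 to 91.2 and 105 CPM (log2 0.81, adjusted p = 0.00152). Tet2-/- held 120 and 120 CPM at D0 and 91.3 and 103 at D6 (log2 -0.30, adjusted p = 0.201). Tet1-/- held 83.1, 66.8 and 68.6 CPM at D0 and 82.9, 52.4 and 80.0 at D6, a log2 difference of -0.02 whose sign turned with the scaling (0.18 with library totals).

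Gbx2, the homeobox gene, showed the widest range. At D0 it was 62.0, 87.8 and 86.7 CPM in WT, 109 and 91.0 in DKO, 64.7 and 69.7 in TKO, 120, 126 and 108 in Tet1-/- and 48.4 and 65.3 in Tet2-/-. At D6 it was 2.02, 0.83 and 2.71 CPM in clones WT_O4.1, WT_O4.2 and WT_O4.13, 2.79 and 1.33 in DKO, 1.51 and 1.45 in TKO and 2.70, 3.50 and 4.67 in Tet1-/-, but 13.96 and 15.52 in Tet2-/-. The log2 fold change was -5.40 (SE 0.315, edgeR adjusted p = 1.41e-10) in WT, -5.62 in DKO, -5.50 in TKO and -5.02 in Tet1-/-, and -1.95 (SE 0.314, adjusted p = 9.54e-05) in Tet2-/-. In the same clones Gbx2 fell 30.7- to 105-fold in WT and 3.47- and 4.21-fold in Tet2-/-.

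**Figure D2:**
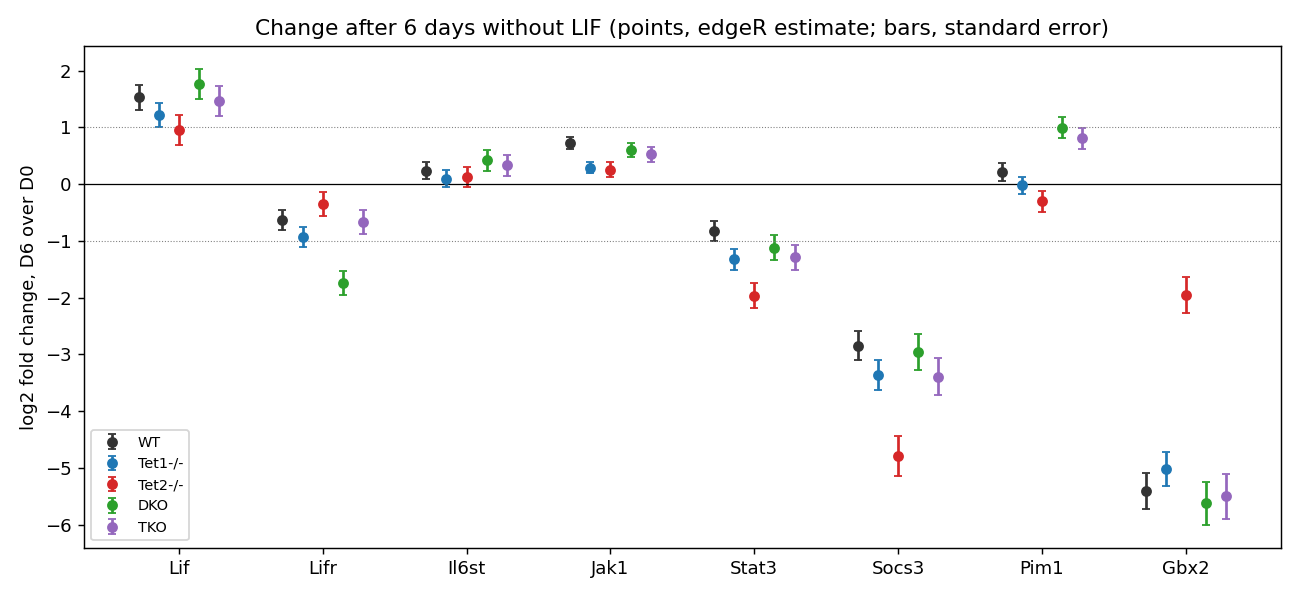
Log2 fold change of D6 over D0 for each of the 8 genes (x axis) and genotype (colour), estimated by edgeR, with standard errors as bars; dotted lines mark a 2-fold change. Tet2-/- shows the deepest fall of Socs3 (-4.79) and the shallowest fall of Gbx2 (-1.95), and DKO the deepest fall of Lifr (-1.74).

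The second question was whether the Tet genotype changed these genes before withdrawal. No gene of the 8 was called against WT in any genotype, where 0.0346% of genes were called in DKO, 3.15% in TKO, 0.00692% in Tet1-/- and 3.19% in Tet2-/-. By adjusted p alone, Pim1 in TKO passed (log2 -0.67, SE 0.142, edgeR adjusted p = 0.0167, where 8.61% of genes did), and it also passed under every alternative run. Without clone TKO_8.4, 4 of the 8 genes passed in TKO in place of 1, a comparison in which TKO is 1 library and the spread comes from the other genotypes. The next differences were lower Pim1 in DKO (log2 -0.54, adjusted p = 0.130), higher Pim1 in Tet2-/- (0.41, adjusted p = 0.0725), lower Gbx2 in Tet2-/- (-0.49, adjusted p = 0.0762) and higher Gbx2 in Tet1-/- (0.56, adjusted p = 0.156). None of these passed with edgeR, although DESeq2 passed all of them, with adjusted p of 0.0283, 0.0444, 0.0444 and 0.0333 in that order. Without clone WT_O4.1, Pim1 and Gbx2 in Tet2-/- passed with edgeR too (adjusted p = 0.0215 and 0.0218). The log2 differences of Stat3, Socs3, Lifr and Il6st from WT at D0 lay between -0.21 and 0.22 in all 4 knockouts, but in TKO this averages 2 clones that stood apart, TKO_8.4 and TKO_8.12, with 234 and 142 CPM of Socs3, 102 and 56.9 of Il6st and 27.7 and 18.0 of Lifr.

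At D6 the differences from WT lay in Tet2-/-. Of the 8 genes, Gbx2, Socs3 and Lif were called there, where 14.3% of all genes were, and Stat3 and Jak1 passed the adjusted p alone, where 28.5% did. Gbx2 was 7.85-fold higher (log2 2.97, SE 0.429, edgeR adjusted p = 0.00414), Socs3 fell below WT by 2.05 on the log2 scale (SE 0.349, adjusted p = 0.00549) and Lif by 1.03 (SE 0.191, adjusted p = 0.00630). Stat3 was lower by a log2 value of -0.91 (SE 0.257, adjusted p = 0.0249) and Jak1 by -0.40 (SE 0.118, adjusted p = 0.0302), and neither passed without either Tet2-/- clone or without clone WT_O4.13 or WT_O4.1 (adjusted p = 0.0643 to 0.171). Lifr at 0.45 (adjusted p = 0.123), Il6st at 0.03 and Pim1 at -0.10 did not pass. Both Tet2-/- libraries lay outside the range of the other 10 D6 libraries for 5 of the 8 genes (Lifr, Jak1, Socs3, Lif and Gbx2), as they did for 30.0% of tested genes. With 1 Tet2-/- library the spread comes from the other genotypes alone: without clone Tet2_KO_3.11 none of the 3 was called and without clone Tet2_KO_3.10 only Gbx2 was, when 0 and 304 genes were called in all, while the log2 values of the 3 stayed between 2.90 and 3.05 for Gbx2, -2.06 and -2.03 for Socs3 and -1.05 and -1.01 for Lif.

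Markers of other cells moved with these Tet2-/- differences at D6. Summed levels of 7 primitive streak and mesoderm genes were 66.9 to 101 CPM in Tet2-/- against 273 to 890 in WT, those of 8 endoderm genes 21.0 to 25.3 against 77.3 to 288, those of 5 trophectoderm genes 4.29 to 5.02 against 23.6 to 60.8 and those of 7 smooth muscle and fibroblast genes 122 to 130 against 330 to 723. The sum of 5 neuroectoderm genes was higher, 11.9 to 13.1 against 2.47 to 2.90 CPM. Ttr, Elf5, Tpbpa and Neurog2 had 0 counts in both Tet2-/- libraries at D6, and Tpbpa and Neurog2 also in all 3 WT libraries. Their part in the result was not tested.

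In the other knockouts at D6, no gene of the 8 passed against WT, and edgeR called 0 genes in all, with 1949, 2251 and 3629 genes at an unadjusted p under 0.05 in Tet1-/-, DKO and TKO. DESeq2 called 43, 185 and 470 genes. Lifr in DKO had the smallest p of the 8 genes, a log2 difference of -0.99 (SE 0.219, edgeR adjusted p = 0.171), with both DKO libraries (8.51 and 7.08 CPM) below all 10 others. It passed with DESeq2 (adjusted p = 0.00418) and with all 24 libraries in 1 edgeR fit (adjusted p = 0.0306). The comparisons share the 3 WT libraries, so the signs in different knockouts are not independent of each other.

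Whether a knockout altered the change between days was tested directly as the day effect of the knockout minus that of WT. In Tet2-/- this difference was called for 3 of the 8 genes, where 8.68% of all genes were called. It was 3.45 (SE 0.429, edgeR adjusted p = 0.000412) for Gbx2, which fell less, and -1.94 (SE 0.394, adjusted p = 0.00611) for Socs3 and -1.13 (SE 0.282, adjusted p = 0.0137) for Stat3, which fell more. The Stat3 value did not pass without clone Tet2_KO_3.10 at D0 (adjusted p = 0.0598) or clone Tet2_KO_3.11 at D6 (adjusted p = 0.0728). For Jak1 it was -0.47 (edgeR adjusted p = 0.0570), which passed with DESeq2 (adjusted p = 0.0333) and without clone WT_O4.2 at D6 (adjusted p = 0.0246). The others did not pass, with -0.58 for Lif (adjusted p = 0.241), -0.52 for Pim1 (adjusted p = 0.138), 0.28 for Lifr and -0.11 for Il6st. No gene of the 8 passed in Tet1-/- or DKO, where edgeR called 0 genes in all (1200 and 1255 at an unadjusted p under 0.05, and 12 and 20 called by DESeq2), nor in TKO, where 3.58% of genes were called. In DKO the difference was -1.11 (SE 0.273) for Lifr, with an edgeR adjusted p of 0.372 and a DESeq2 adjusted p of 0.0498.

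**Figure D3:**
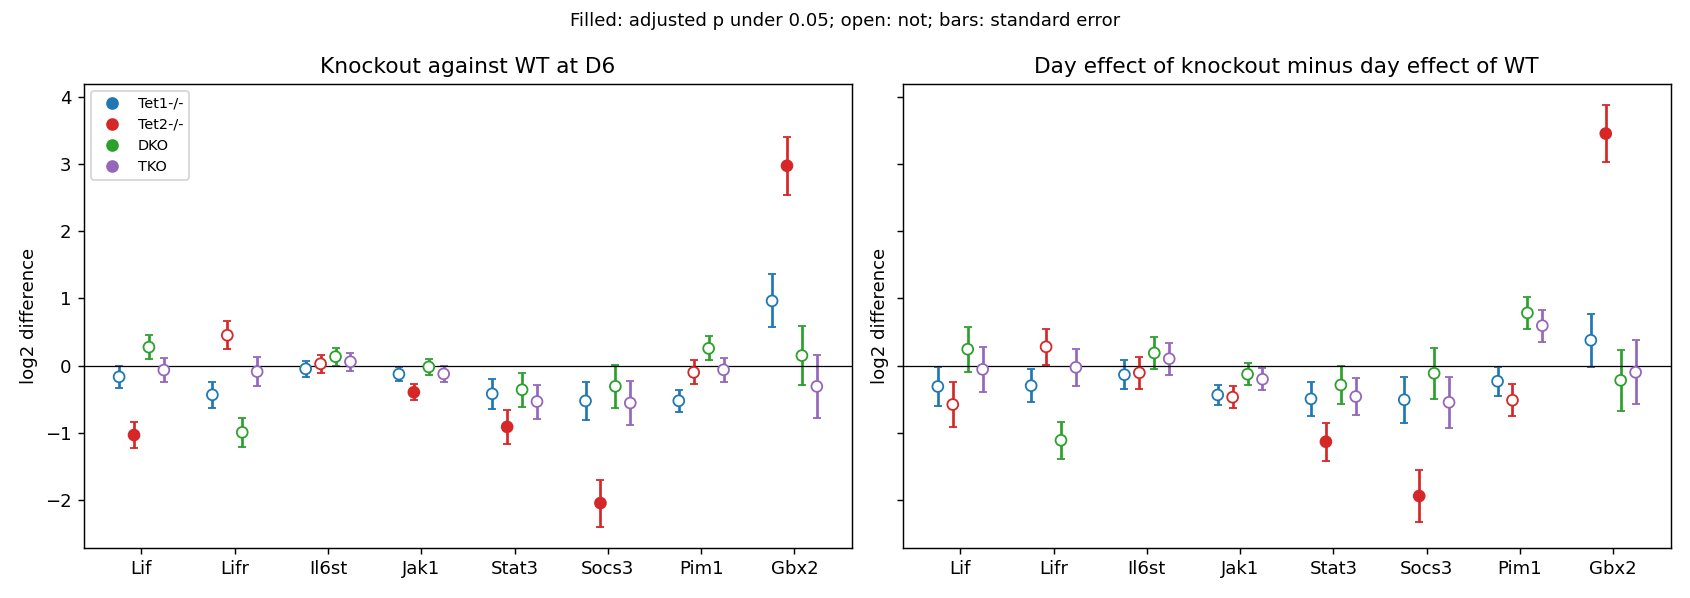
Log2 difference of each knockout from WT at D6 (left) and day effect of the knockout minus that of WT (right) for the 8 genes, with edgeR standard errors as bars; filled points have an adjusted p under 0.05. All filled points are Tet2-/-: Gbx2 is positive in both panels and Socs3 and Stat3 are negative in both.

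**Figure D4:**
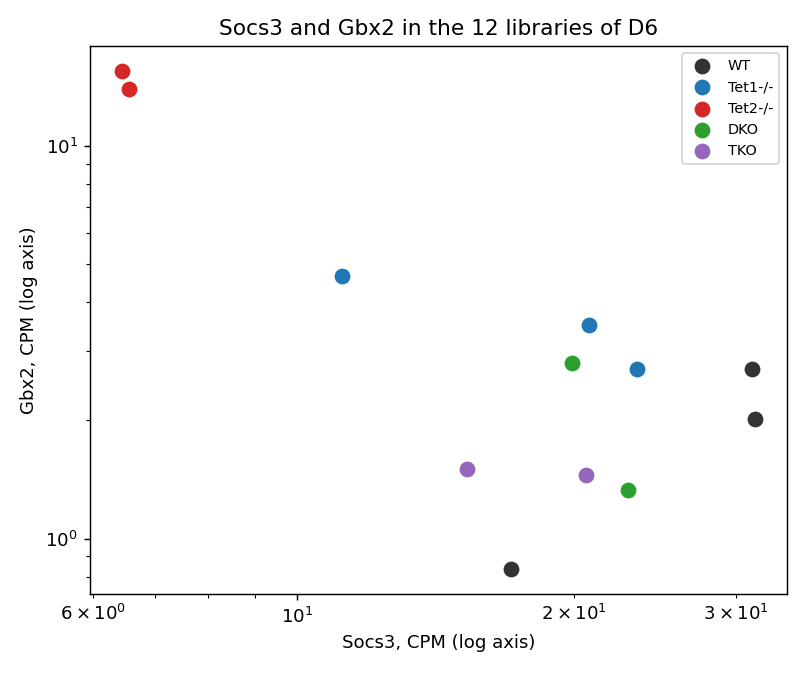
Socs3 (x axis) and Gbx2 (y axis) in the 12 libraries of D6, in CPM on log axes, by genotype. The 2 Tet2-/- libraries sit alone at the upper left with 6.45 and 6.56 CPM of Socs3 and 13.96 and 15.52 CPM of Gbx2, and the nearest is clone Tet1_KO_2.4 with 11.2 and 4.67.

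Outside the 8 genes, 56 further genes of the pathway were read in 6 lists, and 53 passed the filter. In WT, 11 were called higher and 11 lower at D6, in DKO 14 and 9, in TKO 8 and 7, in Tet1-/- 11 and 9 and in Tet2-/- 5 and 8, beside the shares of all genes given above.

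Among 12 further LIF-Stat3 target genes of ESCs, 6 were called lower and 2 higher in WT, where 34.0% of all genes were called, with a median log2 fold change of -0.83 beside 0.01 over all genes. Tfcp2l1 and Klf4, transcription factors of naive pluripotency, fell by 3.114 (SE 0.337, edgeR adjusted p = 2.70e-07) and 3.00 on the log2 scale in WT. Bcl3, a co-regulator of NF-kappaB, fell by 2.99. These 3 were called lower in every genotype, with log2 values in Tet2-/- of -2.90, -2.30 and -3.39. The day effect of Tet2-/- minus WT was called higher for 1 of the 12 and lower for 2, where 8.68% of all genes were called. Fos, an immediate early gene, had a day effect of 1.67 in WT and -0.10 in Tet2-/-, a difference of -1.77 (SE 0.454, adjusted p = 0.0158), and Egr1, another, had -0.53 and 1.06, a difference of 1.58 (adjusted p = 0.0114). Zfp36, which encodes an RNA-binding protein that destabilises cytokine messages, differed by -1.07 (adjusted p = 0.0353). Egr1 was lower in Tet2-/- at D0 (log2 -1.53, edgeR adjusted p = 0.00715), at 8.83 to 9.64 CPM against 17.7 to 31.0 in WT. At D6 it was 18.1 to 20.4 CPM in Tet2-/-, within the WT range of 11.4 to 22.4. The D0 difference and the day-effect difference of Egr1 are therefore not separate results. Fos was lower in Tet2-/- at D6 (log2 -1.68, edgeR adjusted p = 0.0108). Myc, a growth-promoting transcription factor gene, had a day effect of 0.20 in WT and -1.73 in TKO, a difference of -1.93 (SE 0.460, edgeR adjusted p = 0.0205). The 2 TKO clones stood far apart at D0, at 46.4 and 112 CPM, and held 19.5 and 28.3 at D6. WT spanned 52.1 to 62.4 CPM at D0 and 32.4 to 83.6 at D6. Myc was not called in TKO against WT at either day.

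Among 9 JAK kinases and STAT factors other than Jak1 and Stat3, 3 were called higher and 2 lower in WT, where 34.0% of all genes were called. Jak3 fell in WT by 2.28 on the log2 scale (SE 0.230, edgeR adjusted p = 1.16e-07), from 45.8 to 54.2 CPM down to 6.79 to 13.5, and it was called lower in every genotype. Jak2 rose by 2.27 in WT, from 7.07 to 9.18 CPM up to 28.2 to 44.2, and was called higher in every genotype. The day effect of Tet2-/- minus WT was called for 4 of the 9, 1 higher and 3 lower, where 8.68% of all genes were called. Stat5a rose in WT from 1.90 to 3.29 CPM up to 8.07 to 11.4, whereas Tet2-/- held 2.73 to 2.92 CPM at D0 and 2.55 to 2.99 at D6, and the day effects differed by -1.89 (SE 0.537, adjusted p = 0.0249). Stat4 had day effects of -1.94 in WT and -0.19 in Tet2-/- (difference 1.75, adjusted p = 0.00924), and Stat2 of 0.95 and -0.37 (difference -1.33, adjusted p = 0.0154). At D6, 4 of the 9 were called lower and 1 higher in Tet2-/- than in WT, where 14.3% of all genes were called, among them Stat5a (log2 -1.86, adjusted p = 0.0140) and Stat4 (1.24, adjusted p = 0.0302). Stat5a and Stat3 have overlapping exons on opposite strands, and whether the counting used strand is not given in the sources used here, so reads in the overlap cannot be assigned.

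**Figure D5:**
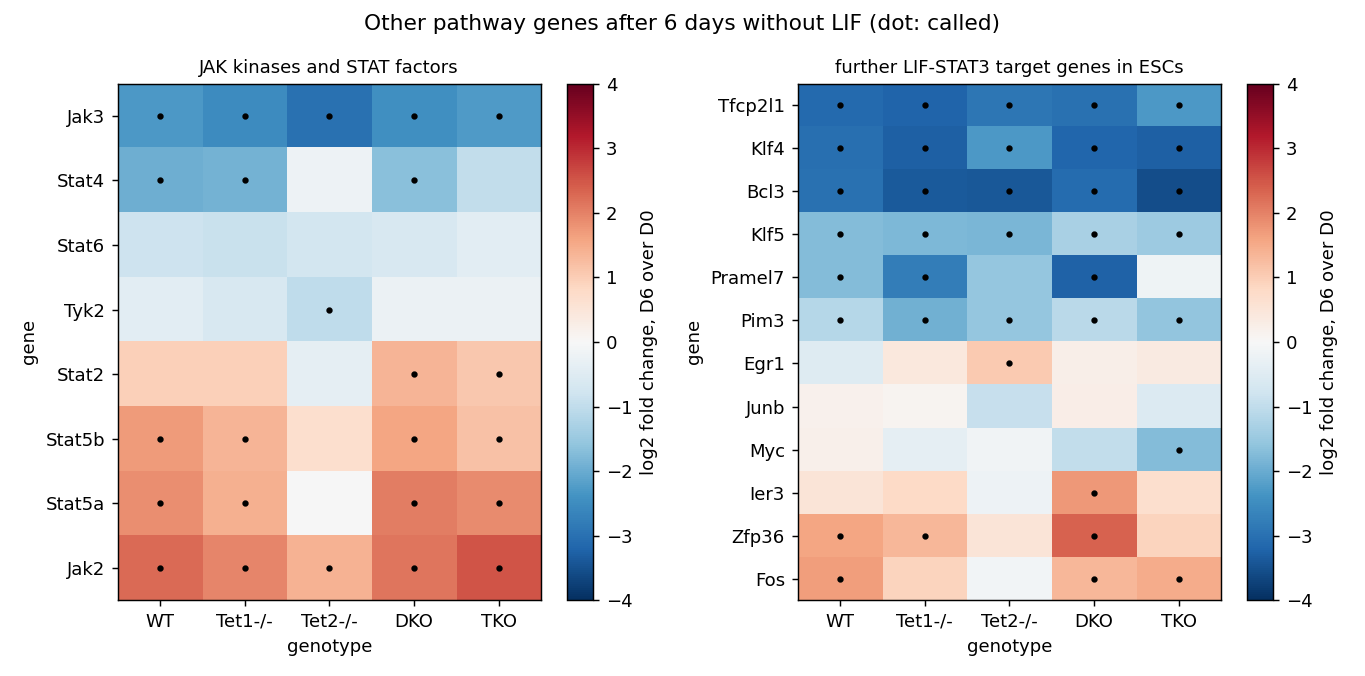
Log2 fold change of D6 over D0 (colour, blue lower and red higher) for 8 JAK kinases and STAT factors (left) and further LIF-Stat3 target genes (right) by genotype; dots mark called genes. Jak3, Tfcp2l1, Klf4 and Bcl3 are called lower and Jak2 higher in all 5 genotypes, while Stat4, Stat5a and Fos are near 0 in Tet2-/-.

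Receptors and ligands of the gp130 family were fewer and mostly low. Of 5 other receptors, 2 were called higher and 2 lower in WT, where 34.0% of all genes were called. Cntfr, the receptor subunit for ciliary neurotrophic factor, rose from 4.28 to 5.97 CPM up to 19.3 to 28.7 in WT (log2 2.25, SE 0.188, edgeR adjusted p = 1.18e-08), and Il6ra, the interleukin-6 receptor, fell from 4.45 to 7.49 CPM to 1.27 to 1.82 (log2 -1.91, adjusted p = 3.57e-05). Cntfr was higher in TKO than in WT at D0, at 10.9 to 11.1 CPM (log2 1.07, edgeR adjusted p = 0.00675). At D6 TKO held 14.1 to 21.8 CPM, overlapping WT, and Cntfr was not called between them. Its day effect in TKO differed from that in WT by -1.53 (edgeR adjusted p = 0.00671), which partly restates the D0 difference. Osmr, the oncostatin M receptor, rose in WT but did not exceed 0.69 CPM in any library, and 5 of the 8 other ligand genes passed the filter, of which Clcf1 and Il11 were called higher in WT at 0.15 to 0.96 and 0.64 to 1.06 CPM at D6. The D0 values of Clcf1 and Osmr, down to 0 counts, and of Il11, at 0.058 to 0.25 CPM, were near the limit of 3 counts. On D0 libraries alone, only 3 of the 8 ligand genes and 4 of the 5 receptors passed the filter. Clcf1, Il11 and Osmr, the last among the receptors called higher, passed it through their D6 levels. Their calls as higher therefore partly follow from the filter.

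Of 14 negative regulators, 7 passed the adjusted p higher and 5 lower in WT, where 66.3% of all genes passed, and 1 was called, where 34.0% were: Socs1, a relative of Socs3 that also blocks JAK kinases, which rose by a log2 value of 1.12 (SE 0.230, edgeR adjusted p = 0.000315). In Tet2-/- its day effect was -0.47, lower than in WT by a log2 value of -1.59 (adjusted p = 0.00939), and that of Socs2 was higher by 1.02 (adjusted p = 0.0124). None of the 14 was called in the other genotypes between days, where 19.1% to 31.1% of all genes were, while 10 passed the adjusted p alone in DKO (55.6% of all genes), 8 in TKO (50.5%), 6 in Tet1-/- (63.4%) and 5 in Tet2-/- (40.0%). Of the 8 genes of the ERK and PI3K branches, Mapk3 (the kinase ERK1) was called higher in WT (log2 1.37, adjusted p = 3.32e-07) and Gab1, an adaptor protein, lower (-1.22, adjusted p = 0.000233). The day effect of Mapk3 in Tet2-/- was 0.35, a difference of -1.02 from WT (adjusted p = 0.0101).

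For each of the 8 genes the most similar profiles were sought as Pearson's r of log2 CPM over the 24 libraries, which share the contrast of the 2 days, so r describes mainly that contrast. Stat3 was closest to Socs3 (r = 0.971) and Gjb5 (0.971), a gap junction gene that went from 23.8 to 69.9 CPM at D0 to 4.66 to 14.9 at D6. Socs3 was closest to Stat3 and Ankrd33b (0.970), and Gbx2 to Cnot11 (0.987) and Noc4l (0.984), which fell far less than Gbx2, Cnot11 from 168 to 214 CPM at D0 to 84.5 to 119 at D6. Lif was closest to Anxa3 (0.981) and Clu (0.973), an annexin gene and the clusterin gene. Lifr followed Zeb1 (0.939), a transcription factor gene of the epithelial-mesenchymal transition, which went from 12.8 to 28.5 CPM at D0 to 3.04 to 15.1 at D6, and Slc39a6 (0.922), a zinc transporter gene. Jak1 was closest to Rbms1 (0.951) and Txnrd2 (0.949), Il6st to Sh3d19 (0.860) and Zc3h7a (0.811), and Pim1 to Col18a1 (0.790) and Epb4.1l1 (0.785), the loosest of the 8.

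In the mm9 genome with GENCODE vM1 annotation, the genes lie at chr15:7079559-7147489 (Lifr), chr13:113265216-113297068 (Il6st), chr4:100824972-100937887 (Jak1), chr11:100746412-100800854 (Stat3), chr11:117827393-117831361 (Socs3), chr11:4157560-4172517 (Lif), chr17:29627757-29632390 (Pim1) and chr1:91824537-91829865 (Gbx2). Exons of Jak1 overlap Raver2, those of Pim1 overlap Gm16912 and those of Gbx2 overlap D130058E05Rik, each on the opposite strand, so reads in these overlaps cannot be assigned either.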

How the data were processed

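Polyadenylated RNA of 24 libraries was sequenced as paired-end reads, which the authors mapped to mm9 with STAR 2.5.1. The authors deposited whole-number counts per RefSeq transcript, named by gene symbol and not normalized. The counting program is given as both htseq-count and featureCounts, and its strand setting is not given in the sources used here. The spike-in scaling of the study was not repeated. Each table has 31928 lines for 22926 symbols (4911 with several), and the first line of a symbol was used.

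Counts were analysed in R 4.3.3 with edgeR 4.0.16 (TMM, filterByExpr with a minimum count of 10, quasi-likelihood F test, Benjamini-Hochberg adjustment over all genes tested), on all libraries for day effects and their differences (15639 genes) and per day for knockout against WT (14456 genes at D0, 15435 at D6). Over all libraries the TMM factors were 0.918 to 0.973 at D0 and 1.02 to 1.10 at D6, so the scaling differed by day. Values between days that changed with library totals depend on this scaling. Genes with an adjusted p-value under 0.05 passed, and those also over 2-fold were called. The scripts were tested on simulated data. Alternatives were RLE size factors, library totals, no filter, DESeq2 1.42.0, the sum of a symbol's lines, all libraries in 1 fit, a replicate block and leaving out each library. Using the line with the highest count was added after the data were seen.

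Clones are paired across days by their label. Deviations of the same clone from its group means at D0 and D6 correlated at r = 0.0813 to 0.193. The DKO clone whose D6 label lacks the point was read as DKO_5.12. Members and lists were chosen with earlier results of these data known. Named were all 8 members, from each other list the 3 genes called with the largest change in WT between days and those called in a knockout contrast (at most 3 per list and contrast), and the 2 genes most like each member (log2 CPM with a pseudocount of 1). One gene that the rule names is not reported here. Genes outside this rule are named only as markers, as targeted genes or as overlapping genes. P-values measure the spread between clones of 1 line, and limits from counts cover counting error only.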

Additional observations from a re-analysis of the deposited data

Results flagged for a closer look

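The day effect differed between Tet2-/- and WT for 3 of the 8 genes, by the test of the difference itself (edgeR, adjusted over 15639 genes). It was 3.45 for Gbx2 (adjusted p = 0.000412), with log2 falls between days of -1.95 in Tet2-/- and -5.40 in WT. It was -1.94 for Socs3 (adjusted p = 0.00611), with -4.79 against -2.85. It was -1.13 for Stat3 (adjusted p = 0.0137), with -1.96 against -0.83. For Socs3 and Gbx2 both Tet2-/- libraries of D6 lay outside all other D6 libraries, and for Stat3 they did not. These 3 differences share the 4 Tet2-/- and 6 WT libraries. Only groups of 2 and 3 libraries were present, so no test for single outlying libraries was made.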

How the results depend on the processing

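Of the log2 values of the 8 genes (all between days, all of Tet2-/- at D6 and of its day effect, and others with an unadjusted p under 0.05), 491 recomputed under other settings kept their direction and side of the threshold, 17 came to pass, 2 no longer passed and 6 turned sign. Leaving out 1 library in turn gave 385, 4, 20 and 6. The sign turned only for values that did not pass: Pim1 between days in Tet1-/- (main -0.02) was 0.016 with RLE size factors and with DESeq2, 0.18 with library totals and 0.11 with clone as replicate block, and -0.10 to 0.21 with a library left out. Il6st between days ranged from -0.023 to 0.21 in Tet1-/- and from -0.033 to 0.82 in TKO with a library left out, the last without clone TKO_8.4 at D0 (edgeR adjusted p = 0.000459). Il6st in Tet2-/- against WT at D6 (0.03) was -0.026 with library totals, -0.033 with title number as replicate block and -0.030 to 0.084 with a library left out, and its day effect in Tet2-/- minus WT ranged from -0.20 to 0.015. DESeq2 called 1 gene of the 8, Lifr, in the day effect of DKO minus WT, where edgeR called 0. The count for Tet2-/- against WT at D6 ranged from 0 to 4 with a library left out, from 0 to 1 without a Tet2-/- clone. Library totals brought Il6st (0.38) and Pim1 (0.36) past the threshold in WT, Il6st (0.51) in TKO, Il6st (0.63) in DKO and Jak1 (0.40) in Tet2-/-, all between days, and took Lifr in TKO out (adjusted p = 0.0563). Il6st in DKO also passed with RLE size factors, no filter, DESeq2 and the clone block.

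With clone as replicate block, which pairs D0 and D6 libraries by label, the only other change was Jak1 in Tet1-/- (0.33, adjusted p = 0.0765). Title numbers within a day share only a number. With them as replicate block no gene of the 8 changed its side of the adjusted p, Lif in Tet2-/- at D6 came to -0.99, just under 2-fold, so that 2 genes were called there in place of 3, and DKO against WT at D0 had 17 genes called in place of 5. Over all genes, counts moved by more than 1.5 times with DESeq2 for Tet1-/- (50 in place of 1) and DKO (110 in place of 5) at D0, for Tet1-/-, DKO and TKO at D6 (43, 185 and 470 in place of 0) and for the day effects of Tet1-/- and DKO (12 and 20 in place of 0). They did so without filter (29 for Tet1-/- and 79 for DKO at D0, 93 for TKO at D6), with all libraries in 1 fit (13 for Tet1-/- at D0, 98 for DKO and 515 for TKO at D6), with the clone block (3 for the day effect of DKO) and with a library left out: 0 to 2635 for Tet2-/- (main 2201) and 0 to 721 for TKO at D6, 5 to 590 for Tet2-/- (main 461) and 226 to 1147 for TKO (main 455) at D0, and 408 to 2096 for the day effect of Tet2-/- (main 1357) and 300 to 1146 for that of TKO (main 560). The small counts came to 0 to 9 for Tet1-/- (main 1) and 0 to 3 for DKO (main 5) at D0, 0 to 6 for DKO at D6 (main 0), and 0 to 7 for the day effect of Tet1-/- and 0 to 14 for that of DKO (main 0). Clone WT_O4.2 at D6 gave the highest count of the Tet2-/- and TKO day effects when left out. The cause was not tested. Depth limits the genes near 3 counts (Clcf1, Osmr, Il11).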
